A study of Eragrostis tef with 16 samples.

Results

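Pathogenesis-related and defence proteins of tef (Eragrostis tef, an allotetraploid cereal) were taken as the genes whose description contains pathogenesis-related, chitinase, glucan endo-1,3-beta, thaumatin, Bowman-Birk, germin, subtilisin or defensin. Descriptions with receptor, MYB or ethylene were to be left out, and 0 matching descriptions held such a word. The rule gave 41 of the 5824 genes with values. They were 5 pathogenesis-related genes, 7 chitinases, 14 glucan endo-1,3-beta-glucosidases (glucanases), 1 germin-like protein and 14 subtilisin-like proteases, while defensins, Bowman-Birk inhibitors and thaumatins had 0 members. Of the 5 pathogenesis-related genes, 3 were described as pathogenesis-related protein 1 (PR1), 1 as pathogenesis-related protein 1A and 1 as a transcriptional activator of such genes. Tef carries 2 subgenomes, A and B, named in each gene ID after the chromosome number. Descriptions came from the best hit in Setaria for 40 members and in sorghum for 1. Of the members, 22 shared a description with another member, and how the authors' counting divided reads between near-identical copies is not known.

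Tef plants stood in hydroponic solution with either low or optimum calcium, and roots and shoots were sampled, which gave 4 groups of 4 libraries. The calcium concentrations and the plants' age are not given in the labels, nor is whether the 4 libraries of a group came from separate plants, so p-values cover the spread between these samples, possibly a technical one. Low-calcium shoot replicate 4 carries both tissues in its title and was placed by its source name. Library numbers ran through all low-calcium libraries before the optimum-calcium ones in both tissues, so library order and calcium cannot be told apart. Within each calcium level all root libraries were numbered before the shoot ones, so order and tissue cannot be told apart either.

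PR1 proteins, chitinases and glucanases are classical pathogenesis-related proteins, most of them secreted into the apoplast. Chitinases cut the chitin of fungal walls, and glucanases cut beta-1,3-glucans of fungal walls as well as callose, the glucan that plants lay down at plasmodesmata and wound sites. Germin-like proteins are extracellular cupins, some of which act on oxalate or superoxide, and subtilisin-like proteases (SBT) are secreted serine proteases with roles in immunity and in development. Calcium ions are second messengers in plant immune signalling.

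Values are given as normalised reads, the reads of a gene after the authors' scaling, with 1 scaling factor per library. The series is typed as non-coding RNA profiling, and the library titles carry the letters mi before the library number. The header speaks of target gene IDs. Neither the labels nor the header name the assay that gave these reads, which could be of mRNA or of small RNA. A gene that rose had more of these reads. Reads on all 5824 genes summed to 1199854 to 3443266 per library, with the fewest in low-calcium root replicate 1. Low-calcium roots had 1199854 to 2019011 and optimum-calcium roots 2320585 to 3443266. In shoots the sums were 1822392 to 2098752 against 2626551 to 2849519, so depth and calcium cannot be told apart in either tissue. All libraries were of bulk tissue, in which fewer cells of a type and less RNA per cell cannot be told apart. Summed normalised reads of 16 green-tissue markers (photosystem, chlorophyll-binding and carbon-fixing genes) were 216000 to 313000 in optimum-calcium shoots and 148000 to 268000 in low-calcium shoots, against 6330 to 18400 in the 8 root libraries. The 2 nicotianamine synthase 2 genes, which mark the roots here, summed to 3990 to 41800 in roots and 122 to 218 in shoots. Gene lengths were not used, so levels are compared between samples and not between genes.

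In roots, 10 of the 41 members rose under low calcium, 0 fell and 31 did not pass (limma on the log2 values, Benjamini-Hochberg adjusted p under 0.05 over all genes). Over all genes tested, 5.32% rose and 3.0% fell. The members that rose were 1 of 5 pathogenesis-related genes, 1 of 7 chitinases, 4 of 14 glucanases, the germin-like protein and 3 of 14 subtilisin-like proteases. The change was positive for 37 members, with a median log2 change of 0.89 against -0.03 over all genes. In 17 members every low-calcium root library lay above every optimum-calcium one, which was so for 12% of all genes, and in 1 the reverse held, against 9.53%. At an unadjusted p under 0.05 stood 24 members and 1648 of the 5824 genes.

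In shoots, 20 members rose, 2 fell and 19 did not pass, while 18.5% of all genes rose and 20.9% fell. Those that rose were 2 pathogenesis-related genes, 3 chitinases, 6 glucanases, the germin-like protein and 8 subtilisin-like proteases, and 1 glucanase and 1 subtilisin-like protease fell. The median log2 change was 0.97 against -0.12 over all genes, and 36 changes were positive. The low-calcium libraries lay wholly above the optimum-calcium ones for 12 members, against 14.1% of all genes, and wholly below for 0, against 17.0%. The germin-like protein Et_9A_062927, the PR1 gene Et_4A_035097 and the SBT1.4 gene Et_1B_013846 rose in both tissues, so 3 of the members did so, as did 136 of the 5824 genes. Another 6 members rose in root only by this threshold and 17 in shoot only, 1 rose in root and fell in shoot, 1 fell in shoot only, and 13 passed in neither tissue. Over all 5824 genes 168 rose in root only, 929 in shoot only and 6 rose in root and fell in shoot, and 3297 passed in neither tissue.

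**Figure D1:**
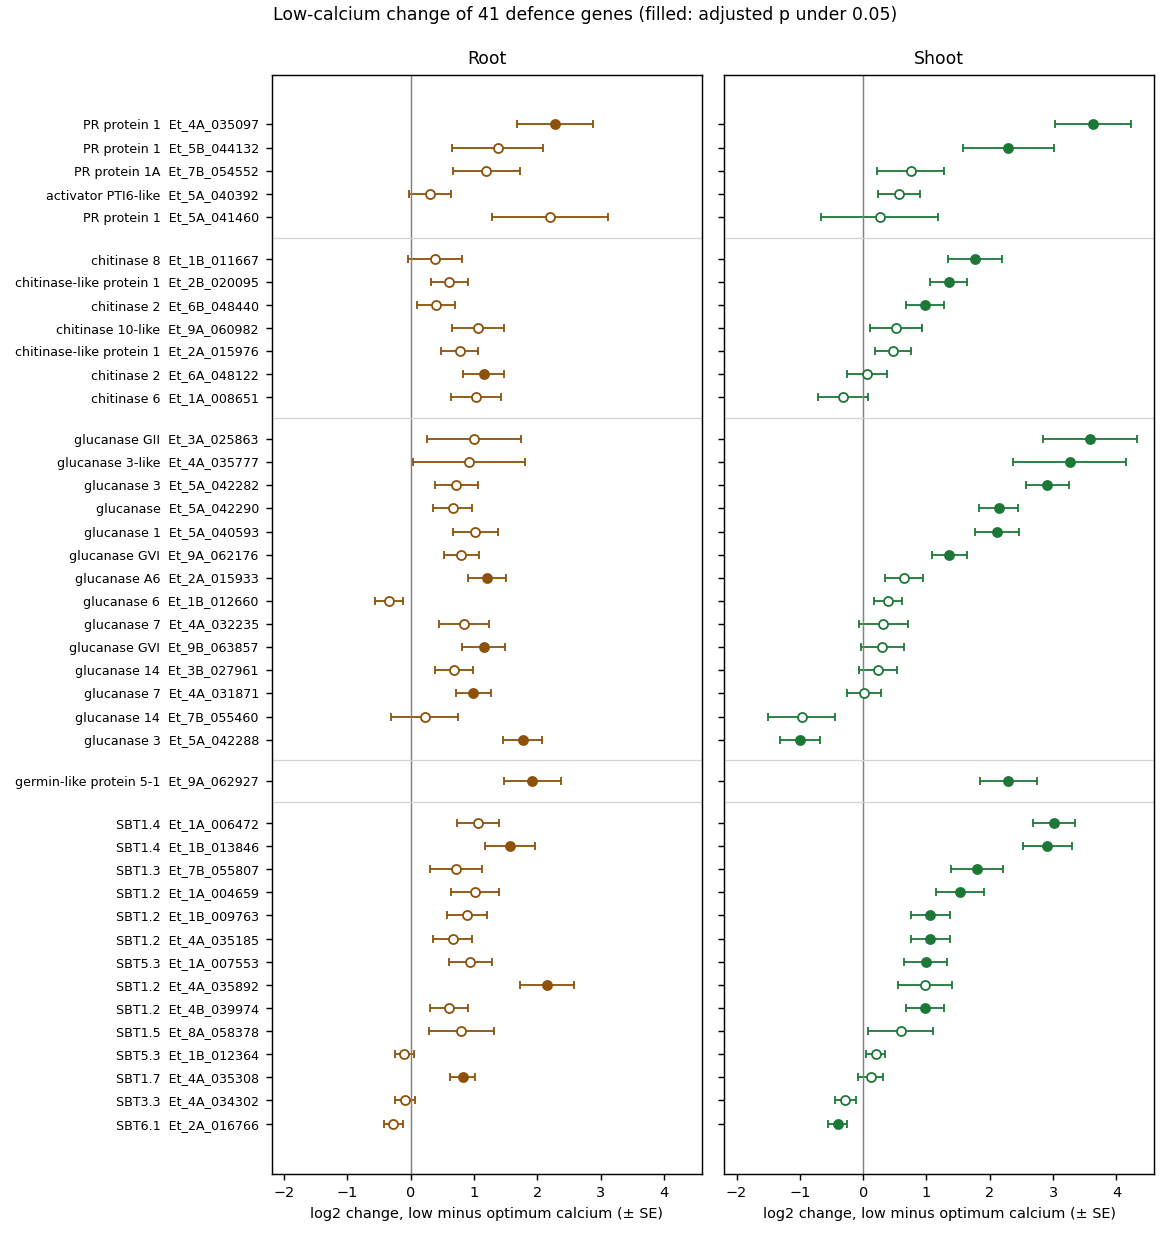
Log2 change (low minus optimum calcium, ± SE) of the 41 members in root (left) and shoot (right), grouped by family, with filled points for an adjusted p under 0.05. Points lie mainly right of 0, with 37 of 41 positive in root and 36 in shoot, and more of them are filled in shoot.

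Of the 10 root calls, 1 remained in all 16 fits that each left out 1 library, and of the 22 shoot calls 14 remained. Without optimum-calcium root replicates 1, 2, 3 and 4 in turn, 5, 2, 16 and 3 members rose in root, and without low-calcium root replicates 1, 2, 3 and 4 the counts were 2, 2, 12 and 1. Root calls over all genes, in either direction, moved likewise from 485 with all libraries. They were 167, 136, 816 and 109 without the optimum-calcium replicates in turn, and 99, 88, 600 and 66 without the low-calcium ones.

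The 3 PR1 genes and the PR1A gene, whose products are marker proteins of salicylic acid-dependent defence in many plants, took a small share of all gene reads. Together they held 0.129% ± 0.0589 (SD, n = 4) in optimum-calcium roots and 0.353% ± 0.115 in low-calcium roots. In shoots the shares were 0.0109% ± 0.0114 and 0.0503% ± 0.0284. The PR1 gene Et_5B_044132 held most of these reads in every group, from 51.7% of them in low-calcium shoots to 81.7% in optimum-calcium roots, a share that also depends on gene length.

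PR1 gene Et_4A_035097 had 24.3, 40.5, 15.8 and 91.4 normalised reads in optimum-calcium shoots (replicates 1 to 4) and 219.6, 725.1, 289.3 and 813.6 in low-calcium shoots. The groups did not overlap, and the log2 change was 3.63 (SE 0.60, 12.3-fold, adjusted p = 3.4e-04). In roots it had 105.4, 87.9, 476.5 and 110.5 normalised reads at optimum calcium and 1280.5, 815.5, 389.6 and 686.8 at low calcium. Optimum-calcium replicate 3 stood above the lowest low-calcium library, and the log2 change was 2.28 (SE 0.60, adjusted p = 0.0332). That root call was lost without optimum-calcium replicates 1, 2 or 4 or low-calcium replicates 1, 2 or 4, with adjusted p from 0.077 to 0.11.

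The PR1 genes Et_5A_041460 and Et_5B_044132 are an A and B pair with the same description and best hit. Et_5B_044132 had 1690.3, 1298.5, 3222.9 and 2044.0 normalised reads in optimum-calcium roots and 7773.4, 5133.6, 3361.2 and 4840.2 in low-calcium roots. These groups did not overlap, but the log2 change of 1.37 (SE 0.72) did not pass (adjusted p = 0.218). In shoots it had 70.0, 202.7, 18.1 and 407.4 normalised reads at optimum calcium and 181.2, 1116.8, 585.9 and 540.6 at low calcium. The groups overlapped through low-calcium replicate 1, and the gene rose by a log2 change of 2.29 (SE 0.72, adjusted p = 0.0199). Without optimum-calcium shoot replicates 1 or 3 or low-calcium replicate 2 the adjusted p was 0.0555, 0.0591 and 0.0697.

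Its A copy, Et_5A_041460, had 99.3, 64.6, 591.5 and 157.2 normalised reads in optimum-calcium roots and 1301.0, 671.3, 469.0 and 673.5 in low-calcium roots. Optimum-calcium replicate 3 was again the high one, inside the low-calcium range, and the log2 change of 2.20 (SE 0.92) did not pass (adjusted p = 0.133). In shoots its values were 10.7, 57.4, 3.4 and 150.3 at optimum calcium and 8.8, 65.1, 35.3 and 38.8 at low calcium. The low-calcium values lay within the spread of the others, with a log2 change of 0.26 (95% interval -1.69 to 2.21, adjusted p = 0.839).

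The PR1A gene Et_7B_054552 was read almost only in roots. It had 34.4, 38.5, 42.0 and 25.4 normalised reads in optimum-calcium roots and 73.2, 103.8, 70.3 and 76.9 in low-calcium roots, groups that did not overlap, with a log2 change of 1.19 that did not pass (SE 0.53, adjusted p = 0.155). Shoots gave 1 read over the 4 optimum-calcium libraries and 5 over the low-calcium ones, a ratio of 6.05 after scaling with an exact 95% counting interval of 0.676 to 286. The fifth gene of the group, Et_5A_040392, encodes a protein like PTI6, an activator that binds the Pto resistance kinase in tomato. It did not pass in root (log2 change 0.30, adjusted p = 0.563) or in shoot (0.56, adjusted p = 0.191).

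**Figure D2:**
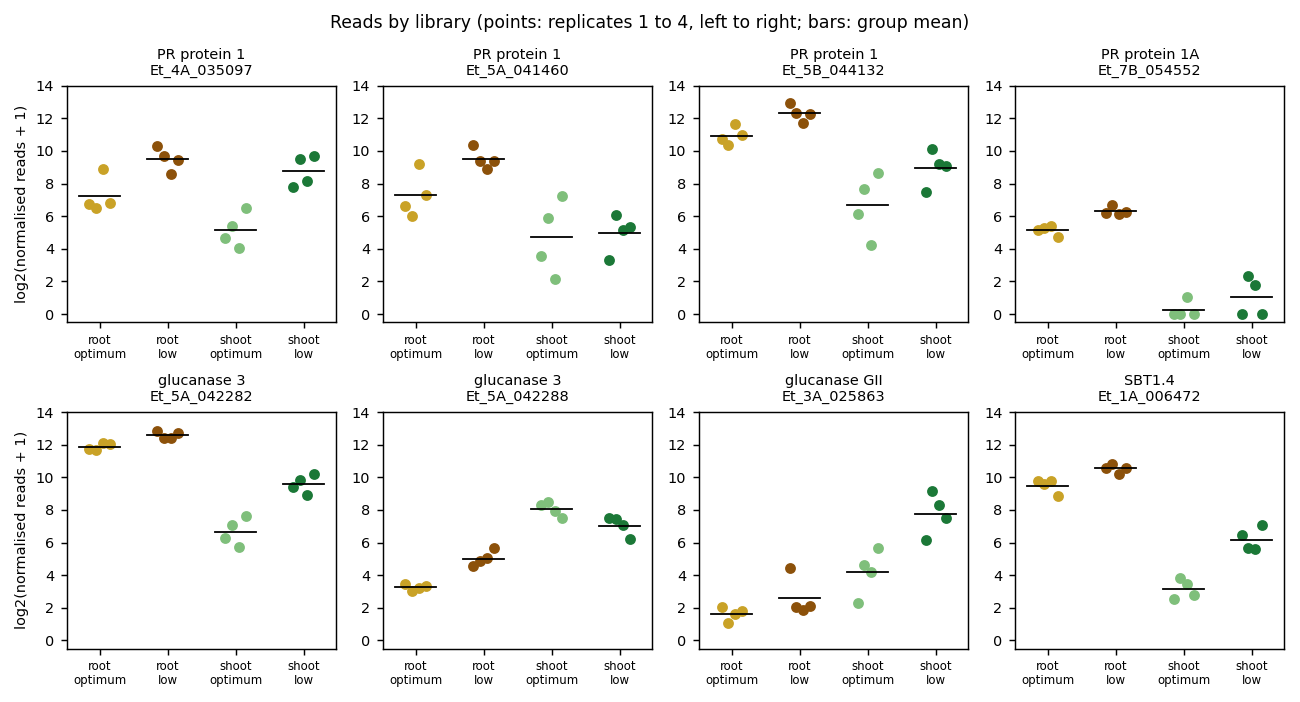
Log2(normalised reads + 1) of 8 members in each of the 16 libraries, with replicates 1 to 4 from left to right and bars at the group means. The PR1 genes Et_4A_035097 and Et_5A_041460 show optimum-calcium root replicate 3 above its group, and the glucanases Et_5A_042282 and Et_5A_042288 differ in which tissue holds more reads.

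Of the 7 chitinases, 1 passed in root and 3 others in shoot, while the difference between the tissues' responses passed for 0 of them. Chitinase 8, Et_1B_011667, had 372.6, 605.2, 397.5 and 1271.9 normalised reads in optimum-calcium shoots and 998.1, 3857.7, 2508.9 and 1590.6 in low-calcium shoots. The groups overlapped through replicate 4 at optimum calcium, and the log2 change was 1.77 (SE 0.43, adjusted p = 0.00518), a call that remained in all 16 fits without 1 library. In roots its log2 change of 0.38 did not pass (adjusted p = 0.567).

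Chitinase-like protein 1 takes part in cellulose deposition in Arabidopsis. Its B copy Et_2B_020095 had 125.5, 182.0, 143.4 and 74.3 normalised reads in optimum-calcium shoots and 373.3, 382.4, 210.3 and 351.9 in low-calcium shoots. The groups did not overlap, and the gene rose by a log2 change of 1.35 (SE 0.29, adjusted p = 0.00255). The A copy Et_2A_015976 had log2 changes of 0.47 in shoot (adjusted p = 0.204) and 0.77 in root (adjusted p = 0.105), and neither passed.

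Of the chitinase 2 pair, the A copy Et_6A_048122 rose in root and the B copy Et_6B_048440 in shoot. Et_6A_048122 had 216.1, 268.0, 468.3 and 147.3 normalised reads in optimum-calcium roots and 769.7, 584.1, 420.6 and 524.0 in low-calcium roots, groups that overlapped through replicate 3 of each. Its log2 change was 1.15 (SE 0.32, adjusted p = 0.0407) in root and 0.06 (adjusted p = 0.902) in shoot. The root call was lost in 7 of the 16 fits without 1 library: optimum-calcium root replicates 1, 2 and 4, low-calcium root replicates 1, 2 and 4 and optimum-calcium shoot replicate 2, with adjusted p up to 0.133. Et_6B_048440 had 210.1, 215.6, 399.8 and 300.7 normalised reads in optimum-calcium shoots and 321.7, 883.1, 540.9 and 521.7 in low-calcium shoots. Optimum-calcium replicate 3 stood above low-calcium replicate 1, and the log2 change was 0.97 (SE 0.30, adjusted p = 0.0189). Without optimum-calcium shoot replicates 1 or 2 or low-calcium replicate 2 its adjusted p was 0.0608, 0.0537 and 0.0725. The other chitinases, chitinase 10-like Et_9A_060982 and chitinase 6 Et_1A_008651, passed in neither tissue, with log2 changes of 1.06 and 1.03 in root and 0.52 and -0.32 in shoot.

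Among glucanases, the pair of genes described as glucanase 3 on chromosome 5A, Et_5A_042282 and Et_5A_042288, had opposite changes in shoot. Et_5A_042282 had 75.9, 135.5, 51.9 and 193.9 normalised reads in optimum-calcium shoots and 664.3, 921.6, 476.5 and 1179.9 in low-calcium shoots. It rose 7.52-fold with no overlap (log2 change 2.91, SE 0.34, adjusted p = 1.5e-05). In roots it had 3405.8, 3267.0, 4392.2 and 4124.7 normalised reads at optimum calcium and 7453.2, 5375.3, 5545.5 and 6683.3 at low calcium. The root groups did not overlap either, though the log2 change of 0.72 (SE 0.34) did not pass (adjusted p = 0.173). In roots it held 81.2% of the glucanase reads at optimum calcium and 81.3% at low calcium.

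Et_5A_042288 had 309.4, 352.0, 247.3 and 176.8 normalised reads in optimum-calcium shoots and 181.2, 170.0, 131.3 and 72.1 in low-calcium shoots. The groups overlapped by 1 library, and the gene fell by 1.00 on the log2 scale (SE 0.31, adjusted p = 0.0178). Without optimum-calcium shoot replicates 1 or 2 or low-calcium replicate 4 the adjusted p was 0.0529, 0.0568 and 0.0682. In roots it had 9.9, 7.1, 8.3 and 9.0 normalised reads at optimum calcium and 22.1, 28.0, 31.9 and 49.1 at low calcium. The root groups were far apart for so few reads, and the log2 change was 1.77 (SE 0.31, adjusted p = 0.00606). This was the root call that remained in all 16 fits without 1 library, while voom on the recovered reads gave an adjusted p of 0.0721.

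The glucanase GII gene Et_3A_025863, named after a barley isoenzyme, had 3.9, 23.7, 16.9 and 50.4 normalised reads in optimum-calcium shoots and 70.3, 568.4, 307.5 and 180.9 in low-calcium shoots. It rose with no overlap (log2 change 3.58, SE 0.74, adjusted p = 0.00191). In roots it had 3.1, 1.1, 2.1 and 2.5 normalised reads at optimum calcium and 20.4, 3.1, 2.7 and 3.3 at low calcium. Low-calcium root replicate 1 stood above the rest, and the change did not pass (adjusted p = 0.379). The glucanase 3-like gene Et_4A_035777 also rose in shoot (log2 change 3.26, SE 0.89, adjusted p = 0.0102). Its low-calcium shoot values were 25.3, 4.0, 2.4 and 155.4 normalised reads against 0.0, 3.0, 1.1 and 0.0, so the groups overlapped and 2 of the 4 low-calcium libraries held nearly all reads.

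The remaining glucanases that rose in shoot were Et_5A_042290 (log2 change 2.14, SE 0.31, adjusted p = 1.1e-04), glucanase 1 Et_5A_040593 (2.11, SE 0.35, adjusted p = 3.1e-04) and the A copy of glucanase GVI, Et_9A_062176 (1.36, SE 0.28, adjusted p = 0.00213). In all 3 the low-calcium shoot libraries lay above every optimum-calcium one. In roots the others that rose were the B copy of glucanase GVI, Et_9B_063857 (log2 change 1.15, SE 0.34, adjusted p = 0.0483), Et_2A_015933, named after the anther glucanase A6 (1.20, SE 0.30, adjusted p = 0.0286), and glucanase 7 Et_4A_031871 (0.99, SE 0.27, adjusted p = 0.0378). Et_2A_015933 had 55.7, 73.3, 51.0 and 99.9 normalised reads in optimum-calcium roots and 165.2, 170.2, 130.5 and 163.9 in low-calcium roots, and these groups did not overlap. Et_2A_015933 lost its call without optimum-calcium root replicates 1 or 2 or low-calcium root replicates 1, 2 or 4 (adjusted p from 0.0577 to 0.0802). Et_4A_031871 lost it without replicates 1, 2 or 4 of either root group (0.0774 to 0.103). Et_9B_063857 lost it in 10 of the 16 fits, those without optimum-calcium root replicates 2 or 4, low-calcium root replicates 1, 2 or 4, optimum-calcium shoot replicates 1, 2 or 3 or low-calcium shoot replicates 1 or 2 (0.0502 to 0.147).

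The other glucanases, glucanase 14 Et_7B_055460 and Et_3B_027961, glucanase 6 Et_1B_012660 and glucanase 7 Et_4A_032235, passed in neither tissue. Their log2 changes ran from -0.34 to 0.84 in root and from -0.97 to 0.39 in shoot.

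The germin-like protein 5-1, Et_9A_062927, rose in both tissues. It had 6.8, 7.9, 5.6 and 14.5 normalised reads in optimum-calcium shoots and 37.3, 71.7, 34.0 and 41.1 in low-calcium shoots. These groups did not overlap, and the log2 change was 2.29 (SE 0.45, adjusted p = 0.00132). In roots its values were 41.2, 14.1, 78.5 and 33.6 at optimum calcium and 212.9, 165.0, 77.6 and 128.2 at low calcium. The root groups overlapped through replicate 3 of each, with a log2 change of 1.92 (SE 0.45, adjusted p = 0.0227), and the call was lost without optimum-calcium replicates 2 or 4 or low-calcium replicates 1, 2 or 4 (adjusted p from 0.0593 to 0.0787).

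Of the 14 subtilisin-like proteases, the SBT1.4 genes rose most in shoot. Et_1A_006472 had 4.9, 12.9, 10.2 and 6.0 normalised reads in optimum-calcium shoots and 85.6, 49.1, 47.4 and 131.0 in low-calcium shoots. The groups did not overlap, and the rise was 8.14-fold (log2 change 3.02, SE 0.33, adjusted p = 8.7e-06). In roots it had 863.5, 753.1, 864.9 and 463.3 normalised reads at optimum calcium and 1544.5, 1800.1, 1197.1 and 1503.0 at low calcium, again with no overlap, and the log2 change of 1.06 (SE 0.33) did not pass (adjusted p = 0.055).

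Its counterpart Et_1B_013846 has the same description but a different best hit. It gave 1 read over the optimum-calcium shoot libraries and 30 over the low-calcium ones. The ratio was 36.3 after scaling, with an exact 95% counting interval of 6.03 to 1480. The gene rose in shoot (adjusted p = 6.0e-05). In roots it had 48.9, 51.0, 89.5 and 30.3 normalised reads at optimum calcium and 137.9, 172.2, 135.0 and 171.7 at low calcium. The root groups did not overlap, and the log2 change was 1.57 (SE 0.39, adjusted p = 0.0293). The root call was lost without optimum-calcium replicates 1, 2 or 4 or low-calcium replicates 1, 2 or 4 (adjusted p from 0.0652 to 0.0964), and with a pseudocount of 0.1 (adjusted p = 0.18).

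SBT1.2 includes, in Arabidopsis, a protease that limits stomatal density. Of 5 genes so described, Et_4A_035892 rose in root and the other 4 in shoot, where the groups of those 4 overlapped. Et_4A_035892 had 20.6, 20.6, 14.5 and 26.2 normalised reads in optimum-calcium roots and 63.0, 82.0, 119.5 and 117.1 in low-calcium roots, with no overlap. Its log2 change was 2.15 (SE 0.43, adjusted p = 0.0138) and the adjusted p was 0.053 without low-calcium root replicate 4. The 4 that rose in shoot were Et_1A_004659 (log2 change 1.53, SE 0.38, adjusted p = 0.00618), its B copy Et_1B_009763 (1.06), Et_4A_035185 (1.06) and Et_4B_039974 (0.97), the last 3 with adjusted p from 0.0144 to 0.0197. The calls of these last 3 were lost without optimum-calcium shoot replicate 1 (adjusted p from 0.0507 to 0.0736) and without low-calcium shoot replicate 4 (0.0511 to 0.0714), and those of Et_4A_035185 and Et_4B_039974 also without optimum-calcium replicate 2 (0.0503 and 0.0544).

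SBT1.3 Et_7B_055807 had 71.0, 57.4, 35.0 and 79.4 normalised reads in optimum-calcium shoots and 218.5, 164.7, 108.2 and 445.1 in low-calcium shoots. It rose with no overlap (log2 change 1.80, SE 0.41, adjusted p = 0.00391). SBT1.7, which acts on seed-coat mucilage in Arabidopsis, was represented by Et_4A_035308, with 280.2, 235.5, 267.2 and 188.3 normalised reads in optimum-calcium roots and 555.1, 438.9, 315.7 and 427.0 in low-calcium roots. It rose in root with no overlap (log2 change 0.82, SE 0.20, adjusted p = 0.0246), and lost the call without optimum-calcium replicates 2 or 4 or low-calcium replicates 1, 2 or 4 (adjusted p from 0.0593 to 0.0878).

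SBT6.1, known in Arabidopsis as a Golgi protease that processes precursor proteins, was the subtilisin-like protease that fell in shoot. Et_2A_016766 had 181.9, 166.1, 137.8 and 165.7 normalised reads in optimum-calcium shoots and 113.1, 115.5, 141.0 and 122.1 in low-calcium shoots, overlapping through replicate 3 of each. It fell by 0.40 on the log2 scale (SE 0.15, adjusted p = 0.0468). With median-ratio size factors the adjusted p was 0.121 and with scaling by the total it was 0.417, so this call depended on the scaling. The call was also lost in 10 of the 16 fits without 1 library, those without replicates 1, 2 or 4 of either shoot group, optimum-calcium root replicates 1 or 2 or low-calcium root replicates 2 or 4 (adjusted p from 0.0569 to 0.126). SBT5.3, known in Arabidopsis from auxin-induced lateral root formation, had 2 genes. Its A copy Et_1A_007553 rose in shoot with no overlap (log2 change 0.99, SE 0.34, adjusted p = 0.0283). The call was lost without optimum-calcium shoot replicate 3 (adjusted p = 0.0849) or low-calcium replicate 2 (0.101), with voom (0.14) and with the replicate block (0.0594). The B copy Et_1B_012364 passed in neither tissue. SBT3.3, which primes immunity in Arabidopsis, passed in neither tissue (Et_4A_034302, log2 change -0.09 in root and -0.28 in shoot), as did SBT1.5 (Et_8A_058378, 0.80 and 0.59).

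Whether the calcium response differed between the tissues was tested as root response minus shoot response, and 3 members passed, or 7.32% of them, against 7.4% of all genes. For Et_5A_042288 the difference was 2.77 on the log2 scale (SE 0.43, adjusted p = 0.00157), for Et_5A_042282 it was -2.19 (SE 0.48, adjusted p = 0.0106) and for Et_1A_006472 it was -1.96 (SE 0.46, adjusted p = 0.0173). All 3 remained in the 16 fits without 1 library. The last had an adjusted p of 0.124 with voom and 0.0526 with the replicate block.

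Between tissues at optimum calcium, 19 members were higher in root and 12 in shoot, where 32.9% and 33.7% of all genes were. At low calcium the counts were 16 and 11, against 28.4% and 28.4%. Of these 31 and 27 calls, 26 and 24 remained in all 16 fits without 1 library. At optimum calcium all 3 PR1 genes and the PR1A gene were higher in root, by log2 differences of 2.07 to 4.24 for PR1. PR1A had 208 reads over the root libraries against 1 over the shoot libraries, a ratio of 146 after scaling with an exact 95% counting interval of 26.0 to 5800. At low calcium Et_4A_035097 did not pass between tissues (log2 difference 0.72, adjusted p = 0.322), and the other 3 were higher in root. With voom, at optimum calcium, 2 of these 4 calls were lost, those of Et_4A_035097 (adjusted p = 0.0731) and Et_5A_041460 (0.061), and the latter was also lost without optimum-calcium root replicate 3 or shoot replicates 1 or 3 (0.0731, 0.0628 and 0.0805). Of the chitinases, 2 were higher in root, chitinase 10-like Et_9A_060982 by a log2 difference of 5.39 (SE 0.41, adjusted p = 5.6e-09), and 4 were higher in shoot. Among the latter, chitinase 8 Et_1B_011667 lost the call with median-ratio size factors (adjusted p = 0.0534), with scaling by the total (0.229) and without optimum-calcium root replicates 3 or 4 or shoot replicates 2 or 4 (0.0544 to 0.15). Of the subtilisin-like proteases 8 were higher in root, Et_1A_006472 by 6.33 (SE 0.33, adjusted p = 7.3e-11), and 3 in shoot, among them SBT1.7 Et_4A_035308 (difference -3.68, SE 0.20, adjusted p = 1.1e-10). The 2 glucanase 3 genes lay at opposite ends, with 5.21 for Et_5A_042282 and -4.79 for Et_5A_042288. Their differences at low calcium were 3.02 and -2.02.

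Of the 19 members higher in root at optimum calcium, 13 rose and 0 fell in low-calcium shoots, and of the 12 higher in shoot, 4 rose and 1 fell. Over all genes, 794 (41.4%) of the 1916 higher in root rose in low-calcium shoots and 60 fell. Of the 1962 higher in shoot, 92 (4.69%) rose and 732 fell. Both comparisons use the optimum-calcium shoot libraries. Of 8 root marker genes, 3 rose in low-calcium shoots, the expansin-A genes Et_1A_009302 (log2 change 4.24), Et_7B_054900 (1.31) and Et_7B_055825 (1.26), and none fell. Summed normalised reads of all 8 root markers were 1870 to 2860 in low-calcium shoots and 1020 to 4310 in optimum-calcium ones, with no marker at 0. Nicotianamine synthase 2 had 122 to 201 normalised reads in low-calcium shoots against 128 to 218 in optimum-calcium ones. Its 2 genes had log2 changes of -0.07 and -0.33 in shoot and -0.85 and -0.72 in root, and neither passed in either tissue. The nicotianamine synthase 3 genes and expansin-A11 did not pass in shoot either. What these marker values reflect was not tested.

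As a share of all gene reads, the 41 members held 0.767% ± 0.0551 (SD, n = 4) in optimum-calcium roots and 1.38% ± 0.16 in low-calcium roots, with ranges of 0.723% to 0.843% and 1.21% to 1.6%. In shoots the shares were 0.434% ± 0.0815 and 0.813% ± 0.224, with ranges of 0.322% to 0.496% and 0.62% to 1.03%. The ranges did not overlap in either tissue. Subtilisin-like proteases held 0.284% ± 0.0364 of reads in optimum-calcium roots and 0.449% ± 0.0122 in low-calcium ones, and chitinases 0.0928% ± 0.019 and 0.153% ± 0.0168. In shoots glucanases went from 0.0765% ± 0.00803 to 0.195% ± 0.0733. Shares are a description and were not tested.

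**Figure D3:**
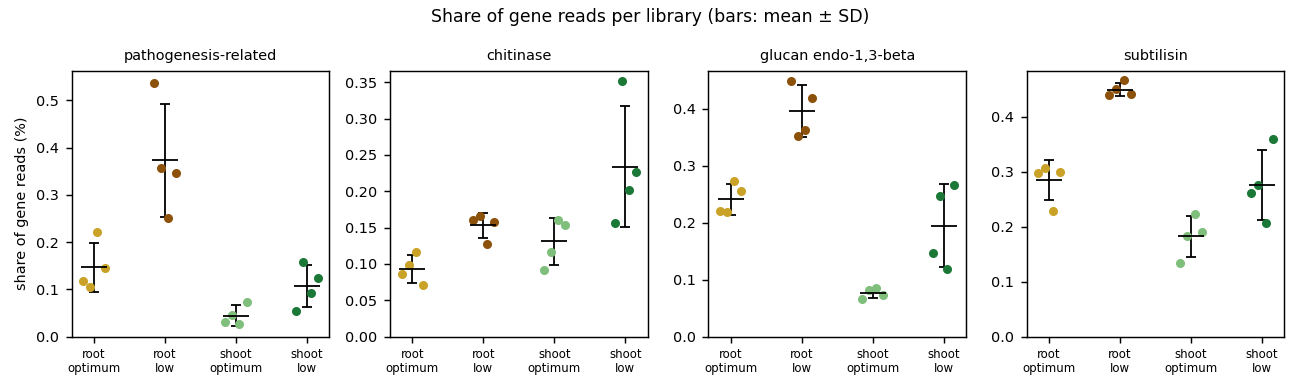
Share of all gene reads (%) per library for 4 families, with points for replicates and bars for the mean ± SD of 4 libraries. Low-calcium root libraries lie above the optimum-calcium ones in all 4 panels, while in shoots the groups overlap for pathogenesis-related genes, chitinases and subtilisin-like proteases.

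Of 1427 A and B pairs with the same description over the whole table, 7 were pairs of members, and the change in the A minus B difference was tested in each tissue. Of these 14 tests 3 passed, all in shoot, where 11.1% of all pairs passed, against 1.05% in root. For PR1 the A minus B difference was -2.60 to -1.43 on the log2 scale in optimum-calcium shoots and -4.22 to -3.76 in low-calcium shoots, a change of -2.03 (SE 0.35, adjusted p = 0.0021). These ranges did not overlap, and the B copy was the one that rose. For chitinase-like protein 1 the A copy lay 1.31 to 1.97 above the B copy at optimum calcium and 0.40 to 1.01 above it at low calcium (change -0.88, SE 0.16, adjusted p = 0.00233).

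For glucanase GVI the A minus B difference was -0.70 to -0.27 in optimum-calcium shoots and -0.05 to 1.13 at low calcium (change 1.06, SE 0.27, adjusted p = 0.0244). This call was lost without optimum-calcium shoot replicates 2 or 3 (adjusted p = 0.0531 and 0.0557) and without low-calcium replicates 2 or 4 (adjusted p = 0.0769 for each). The chitinase 2 pair, whose copies each passed in 1 tissue, did not pass as a pair in shoot (change -0.91, adjusted p = 0.0845) or root (0.76, adjusted p = 0.351). It passed in shoot without optimum-calcium root replicates 3 or 4 (adjusted p = 0.0402 and 0.00983), which enter only the estimate of spread. In root the PR1 pair did not pass (0.83, adjusted p = 0.355), and without optimum-calcium root replicate 3 it did (1.23, adjusted p = 0.0317). The SBT5.3 pair did not pass in shoot (0.80, adjusted p = 0.0934) or root (1.03, adjusted p = 0.11).

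**Figure D4:**
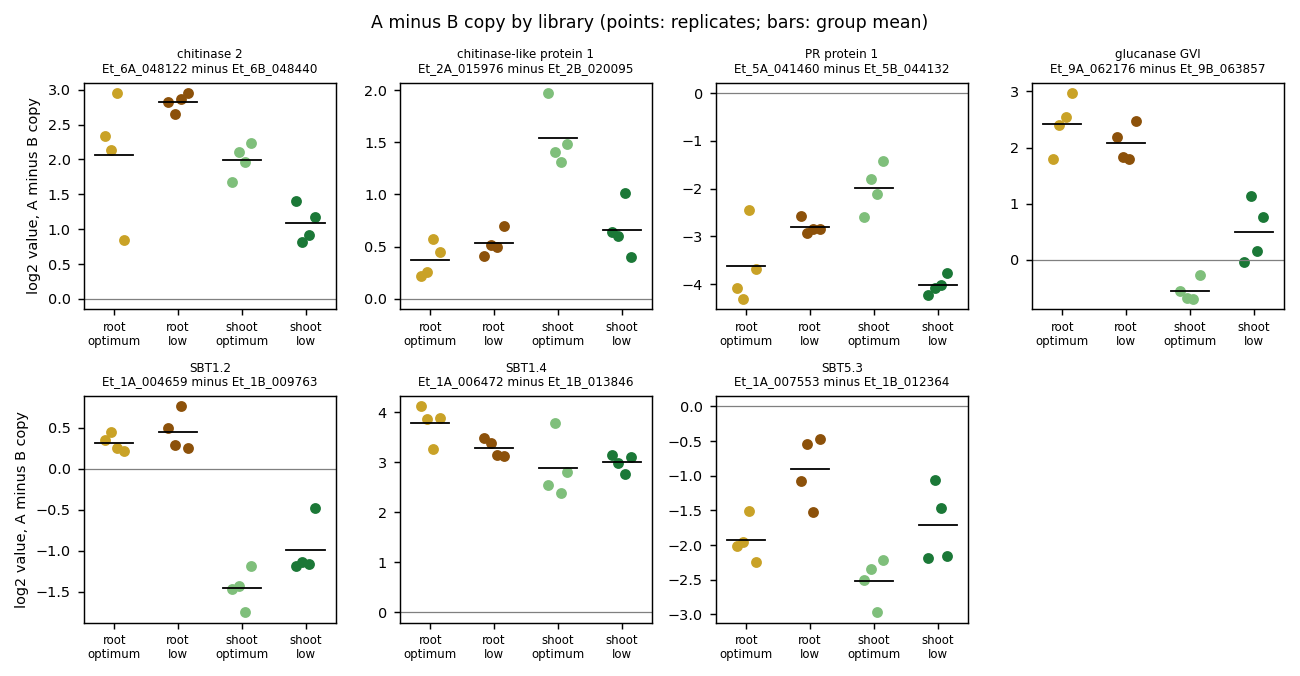
Log2 value of the A copy minus that of the B copy for the 7 pairs of members in each library, with bars at group means and replicates as points. In shoots the low-calcium points lie wholly below the optimum-calcium ones for PR1, chitinase-like protein 1 and chitinase 2, and wholly above for glucanase GVI and SBT5.3. Of these pairs, chitinase 2 and SBT5.3 did not pass the pair test in shoot (adjusted p = 0.0845 and 0.0934). How many of all 1427 pairs separate in this way was not counted.

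Other defence genes of the table were taken from 2 word lists. Of 62 signalling genes (WRKY factors, mitogen-activated protein kinases, respiratory burst oxidases, calmodulin-binding proteins 60 and others), 2 rose and 0 fell in root, and 15 rose and 12 fell in shoot, with median log2 changes of 0.08 and 0.15. As shares, 3.23% rose in root against 5.32% of all genes, and 24.2% rose and 19.4% fell in shoot against 18.5% and 20.9%, so the list lay near the background. Both that rose in root encode WRKY76, a repressor of defence genes in rice, namely Et_2A_016308 (log2 change 2.40, adjusted p = 0.00918) and Et_2B_020390 (2.34, adjusted p = 0.0104). They rose in shoot as well, by 2.81 and 4.01. The oxidase B genes Et_3A_023793 and Et_3B_028206, which make reactive oxygen in immune responses, rose in shoot by 2.53 and 2.10. Among the 12 that fell in shoot were 4 genes of calmodulin-binding protein 60, a family with regulators of salicylic acid synthesis in Arabidopsis: Et_1B_010395 (-0.65), Et_1B_012257 (-0.58), Et_7B_053843 (-0.62) and Et_7A_051124 (-0.52).

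Of 24 genes for other defence products, 6 rose and 0 fell in root, and 9 rose and 1 fell in shoot, with medians of 0.54 and 0.40. As shares, 25% rose in root against 5.32% of all genes, and 37.5% rose and 4.17% fell in shoot against 18.5% and 20.9%. Phenylalanine ammonia-lyase, the entry step to lignin and phenolic defence compounds, rose in root for Et_1B_013364 (log2 change 1.19, adjusted p = 0.0236) and Et_1A_009585 (1.38, adjusted p = 0.0384). Et_1B_013364 also rose in shoot (1.40, adjusted p = 0.00162). Lipoxygenase Et_4B_037678 and the lipid-transfer protein Et_1A_007284 rose in both tissues, by 1.33 and 1.42 in root and 1.06 and 1.18 in shoot. Callose synthase 3, Et_4A_032795, which makes the substrate of glucanases, fell by 0.99 in shoot (adjusted p = 0.00316).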

How the data were processed

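Per the file headers the deposited table gives values for target gene IDs, 5824 of them with log2 values in 16 libraries and 5634 listed without any. Raised as powers of 2 and lowered by 1, these deposited log2 values fell on whole steps in every library (100% of 93184 values within 0.1 of a step), so whole reads could be recovered and the authors had added 1 to scaled reads. This scale understates changes of genes with few reads. Aligner, genome build, strand setting and counting method: not given in the sources used here. Of the 41 members, 38 had reads in all libraries. Every gene with values had a mean of at least 52.75 reads in its highest group, so genes read in 1 group only were kept. Exact counting intervals cover counting error only, while the interval on a log2 change covers the spread between libraries.

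Tests used limma 3.58.1 in R 4.3.3 (intensity trend, all 16 libraries, 1 coefficient per group, no covariate), with Benjamini-Hochberg adjustment over all 5824 genes and a threshold of 0.05, because the columns do not hold raw counts. A and B pairs were fitted on the A minus B difference and adjusted over 1427 pairs, 1399 of which share the best hit. The test was checked on simulated data in which all genes had 1 spread, 100 were raised 2-fold and 100 were raised 4-fold. It called 22% of simulated 2-fold changes in root and 30% in shoot. Of 4-fold changes it called 98% in each tissue, and of unchanged genes 0.16%. In the real data 485 genes were called in root and 2292 in shoot, so these simulated shares need not hold there. A member that did not pass may thus still have changed by about 2-fold. The test was repeated with a pseudocount of 0.1, a filter of 50 reads, scaling by the total or by median-ratio size factors, only the libraries of the groups compared, a replicate block, voom, a log2 change of at least 1, and without each library. A filter of a mean of 200 reads and the pair test were added after seeing the data. Named genes are, per family, up to 3 members that passed with the largest change in each calcium comparison, the members at each end between tissues, those whose response differed between tissues, and the A or B copies of all of these. Further members were named after their values were seen, to account for all of them. Members and lists were chosen with earlier results of these data known. Replicate numbers were not taken to pair libraries. Summaries and figures used Python 3.11.15, pandas 2.3.3, numpy 2.4.6, scipy 1.17.1 and matplotlib 3.10.9.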

Additional observations from a re-analysis of the deposited data

Results flagged for a closer look

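In 7 of 104 sets of 4 libraries (26 named genes in 4 groups), 1 library stood apart from the other 3 by Dixon's 95% criterion, which chance meets in about 1 of 20 sets. On the log2 scale PR1 Et_4A_035097 stood at 8.90 in optimum-calcium root replicate 3 against 6.47 to 6.80 in the others. Glucanase GII Et_3A_025863 stood at 4.42 in low-calcium root replicate 1 against 1.90 to 2.12. Chitinase-like protein 1 Et_2B_020095 was lowest in low-calcium shoot replicate 3, at 7.72 against 8.46 to 8.58. Et_2A_015933 (glucanase A6) was lowest in low-calcium root replicate 3, at 7.04 against 7.37 to 7.42. SBT1.2 Et_1B_009763 was lowest in optimum-calcium root replicate 3, at 6.42 against 6.82 to 6.90. SBT1.4 Et_1B_013846 and PR1A Et_7B_054552 each stood at 1.09 in optimum-calcium shoot replicate 3, from 1 read, against 0 in the others. Of the 7 library values, 6 belong to a replicate 3. The part of single libraries in the group differences is given by the fits without 1 library.

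By the test of the difference, the calcium response differed between root and shoot for 3 members. These were 7.32% of the members, against 7.4% of all genes. For glucanase 3 Et_5A_042288 it differed by 2.77, with a log2 change of 1.77 in root while it fell by 1.00 in shoot, for glucanase 3 Et_5A_042282 by -2.19 (0.72 and 2.91) and for SBT1.4 Et_1A_006472 by -1.96 (1.06 and 3.02).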

How the results depend on the processing

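Among recomputed values for single genes and pairs, 1849 kept direction and side of the threshold, 73 lost it, 31 gained it and 10 turned; the cause was not tested. The 20 shoot and 10 root rises were 20 and 10 under both other scalings (median-ratio and total). With the libraries of the groups compared only, 20 rose in root and 15 in shoot, where Et_4A_035777, Et_5B_044132, Et_1B_009763, Et_4A_035185 and Et_4B_039974 lost the call (adjusted p 0.0519 to 0.0722). Calls over all genes, in either direction, then went from 485 to 831 in root and from 2292 to 1747 in shoot. The 2 shoot falls became 1 with either scaling, libraries of the groups compared, voom or a log2 change of at least 1, and with the replicate block, which gave 9 root and 20 shoot rises and no call for Et_6A_048122 and Et_1B_013846 in root (adjusted p = 0.062 and 0.0643), Et_1A_007553 and Et_2A_016766 in shoot (0.0594 and 0.109) or the difference in response of Et_1A_006472 (0.0526). Same-numbered libraries did not pair (correlations of deviations -0.405 to 0.302). The lowest was between optimum- and low-calcium root replicate 3, while root replicates 1, 2 and 4 gave 0.0339, -0.0284 and 0.0808. A filter of 200 reads, which left 17 members, gave 3 root rises, 10 shoot rises and 0 shoot falls, 8 higher and 7 lower in root at optimum calcium, and 6 and 7 at low calcium. It left 2859 genes, of which 302 were called in root and 1226 in shoot, in either direction. Of these calls 56.6% in root and 33.4% in shoot were higher under low calcium. Between tissues 1869 genes were called at optimum calcium and 1600 at low calcium, 44.0% and 47.1% of them higher in root. The filter of 50 reads removed no gene and tested nothing. Without 1 library the counts ranged over 1 to 16 root rises, 0 to 0 root falls, 15 to 23 shoot rises, 0 to 2 shoot falls, 3 to 5 differing responses, 16 to 20 higher and 11 to 13 lower in root at optimum calcium, and 14 to 18 and 11 to 11 at low calcium. Changes turned, without passing, for Et_5A_040392 in root (-0.06 to 0.51, lowest without optimum-calcium root replicate 3), and in shoot for Et_6A_048122 (-0.17 to 0.23; -0.17, -0.02 and -0.10 without optimum-calcium replicates 1 and 2 and low-calcium replicate 2), Et_5A_041460 (-0.59 to 1.11; -0.12, -0.59 and -0.10 without optimum-calcium replicates 1 and 3 and low-calcium replicate 2) and Et_4A_035308 (-0.05 to 0.25, lowest without optimum-calcium replicate 1). The SBT1.4 pair turned from 0.12 in shoot to -0.05 without optimum-calcium replicate 3 (up to 0.42 without another library) and to -2.27 (adjusted p = 0.028) with a pseudocount of 0.1, where 1 copy had 1 read. The median over all genes in shoot moved from -0.12 to 0.00 and 0.07 under the 2 scalings, and the share of calls higher from 46.9% to 59.4% and 72.9%; in root it was 63.9%, 74.3% and 66.9%, and between tissues at optimum calcium 49.4%, 52.2% and 67.4%. Genes of few reads limit the precision.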
